A study of Mus musculus with 24 samples.

Results

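The small leucine-rich proteoglycans are secreted matrix proteins built from leucine-rich repeats, most of which carry chondroitin, dermatan or keratan sulfate chains. They bind collagen fibrils and set their spacing and width, and several of them also hold growth factors such as TGF-β in the matrix. In adipose tissue they are made mainly by the fibroblast-like stromal cells from which adipocytes differentiate. The 8 genes Dcn (decorin), Bgn (biglycan), Aspn (asporin), Fmod (fibromodulin), Lum (lumican), Prelp (prolargin), Ogn (osteoglycin) and Podn (podocan) were taken by symbol from the 24825 genes listed in each library, and all 8 were found.

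RNA-seq was measured in cells of the inguinal stromal vascular fraction, the mixed non-adipocyte cells of a subcutaneous fat depot, from mice whose Nfia gene carries loxP sites in both copies. All cells were immortalised with SV40 large T antigen, so every group carried that transgene, and all were given retroviruses. There were 4 cell types. The ctrl cells had an empty retrovirus, and the Cre cells expressed Cre recombinase. Besides Cre, the Cre + NFIA cells expressed whole NFIA with a FLAG tag, and the Cre + NFIA Δpro#3 cells expressed a tagged NFIA without a proline-rich stretch near its C-terminus. NFIA belongs to the nuclear factor I transcription factors and is needed for brown and beige adipocyte differentiation, and the samples ask whether the full-length or the shortened protein gives back what is lost with Nfia. Each cell type was sampled at day 0, before induction, and at day 7 after a thermogenic cocktail of isobutylmethylxanthine, indomethacin, dexamethasone, insulin, T3 and rosiglitazone followed by insulin, T3 and rosiglitazone, in 3 replicates, which made 24 libraries in 8 groups. No source used here says whether the replicates came from separate infections or animals, so p-values measure the spread between these libraries, which may be technical.

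Library totals ranged from 7.73 to 14.6 M reads (M, 1000000). In ctrl cells Nfia was 6.47 ± 0.264 FPKM before induction and 9.55 ± 0.355 FPKM after 7 days (SD, n = 3). In Cre cells it was 6.21 ± 0.773 and 10.1 ± 0.588 FPKM, so the whole-gene value was not lower in the libraries labelled Cre. The floxed part is a single exon, so this value is a weak check of the deletion. For their Cre-expressing cells the authors report efficient recombination by PCR of genomic DNA, and loss of nearly all NFIA mRNA and protein. Within the libraries used here, the direction of every Cre comparison rests on the label. Nfia was 60.7 to 102 FPKM (group means) where NFIA or Δpro#3 was introduced, a value that includes transgene reads. The adipocyte genes show how far each cell type differentiated: Adipoq (adiponectin) at day 7 was 1887 ± 88.8 FPKM in ctrl, 499 ± 169 in Cre, 1786 ± 53.1 in Cre + NFIA and 117 ± 57.6 in Cre + NFIA Δpro#3. The endothelial markers summed to at most 7.48 FPKM and the leukocyte markers to at most 13.6 FPKM in any library, with Tie1 at 0 reads in every library and Adgre1 likewise. Other markers of these lists were present. By group mean Tek reached 6.65 FPKM, Lyz2 4.35 and Csf1r 3.23, and Cd68 was 4.08 to 7.02 FPKM, with at least 1 FPKM in all 24 libraries. The ctrl day 0 replicate 2 library stood apart from its group for Ogn and Aspn, and the values of these genes whose call it changes, or that it moves by over 1.5 times, are given with and without it. Over all genes it differed from its partners by 9.62 and 14.0 times sampling noise (chi-square per degree of freedom), and they from each other by 3.12. For Cre + NFIA Δpro#3 day 7 replicate 3 these values were 15.1 and 13.6, against 4.89.

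The genes lie in small clusters, as positions on NCBIM37, the assembly named mm9, show. Dcn (chr10:96942245-96980777) and Lum (chr10:97028135-97035337) were 47.4 kb apart, and Prelp (chr1:135806881-135817991) and Fmod (chr1:135933831-135944854) were 116 kb apart, with no protein-coding gene between either pair. Aspn (chr13:49639812-49662926) and Ogn (chr13:49703440-49719869) were 40.5 kb apart with the related gene Omd (osteomodulin) between them. Podn (chr4:107687396-107704942) and Bgn (chrX:70728941-70741272) stood alone among the 8 genes.

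Because the cell types differ in NFIA, promoters were searched for the letters TTGGCA on either strand, a form of the half-site that nuclear factor I proteins bind. RefSeq promoters on GRCm38.p6 (250 bases before to 50 after the annotated start) were listed for 6 of the 8 genes, Podn with 2, which made 7 promoters, and Dcn and Lum were not among them. The letters occurred in 3 of the 7 promoters, those of Prelp, Fmod and Ogn, and in 14.1% of the 32851 promoters listed for the genome (4640 promoters). The match in Prelp began 144 bases before the start and in Ogn 80 bases before it, and the match in Fmod began 32 bases after it. They were not found in the promoters of Bgn, Aspn and Podn. These are matches of letters only, and binding was not measured at them here. The 3 promoters are printed because they hold the match, which stands in capitals (TTGGCA, or TGCCAA where it lies on the other strand), each 5′ to 3′ on the strand of the gene.
Prelp, chr1:133921352-133921651, minus strand: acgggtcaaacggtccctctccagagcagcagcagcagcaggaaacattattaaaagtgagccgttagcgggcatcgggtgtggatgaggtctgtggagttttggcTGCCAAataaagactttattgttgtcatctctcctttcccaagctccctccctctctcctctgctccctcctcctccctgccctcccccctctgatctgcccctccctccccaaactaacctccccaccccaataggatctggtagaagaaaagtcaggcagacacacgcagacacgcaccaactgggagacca
Fmod, chr1:134037004-134037303, plus strand: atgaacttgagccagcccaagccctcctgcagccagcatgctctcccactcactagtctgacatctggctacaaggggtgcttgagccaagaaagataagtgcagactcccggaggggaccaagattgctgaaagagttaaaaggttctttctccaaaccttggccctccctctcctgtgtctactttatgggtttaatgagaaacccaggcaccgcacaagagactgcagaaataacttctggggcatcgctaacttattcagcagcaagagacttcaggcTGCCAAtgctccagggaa
Ogn, chr13:49607765-49608064, plus strand: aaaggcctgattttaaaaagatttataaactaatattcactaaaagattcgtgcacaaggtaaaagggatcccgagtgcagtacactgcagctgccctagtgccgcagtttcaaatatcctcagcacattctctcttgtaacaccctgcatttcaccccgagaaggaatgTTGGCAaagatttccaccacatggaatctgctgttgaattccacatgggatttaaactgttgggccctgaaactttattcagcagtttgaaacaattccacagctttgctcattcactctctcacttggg

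Biglycan mRNA made up most of the total. FPKM, fragments per kilobase of gene per M fragments, allows levels of different genes to be set side by side, and Bgn gave 78.0 to 91.9% of the summed FPKM of the 8 genes in every library. Its level lay between 526 and 1457 FPKM. Ogn lay between 15.6 and 173 FPKM, Prelp between 6.44 and 99.5, Dcn between 3.65 and 24.1, Fmod between 1.95 and 8.92, Aspn between 0.279 and 8.23, and Podn between 0.751 and 3.498. Lum was nearly absent, with at most 24 reads in a library. Between the highest and the lowest group mean, Bgn differed 2.44-fold, Fmod 3.65-fold, Podn 3.68-fold, Dcn 4.57-fold, Ogn 6.33-fold, Prelp 13.6-fold and Aspn 17.6-fold.

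**Figure D1:**
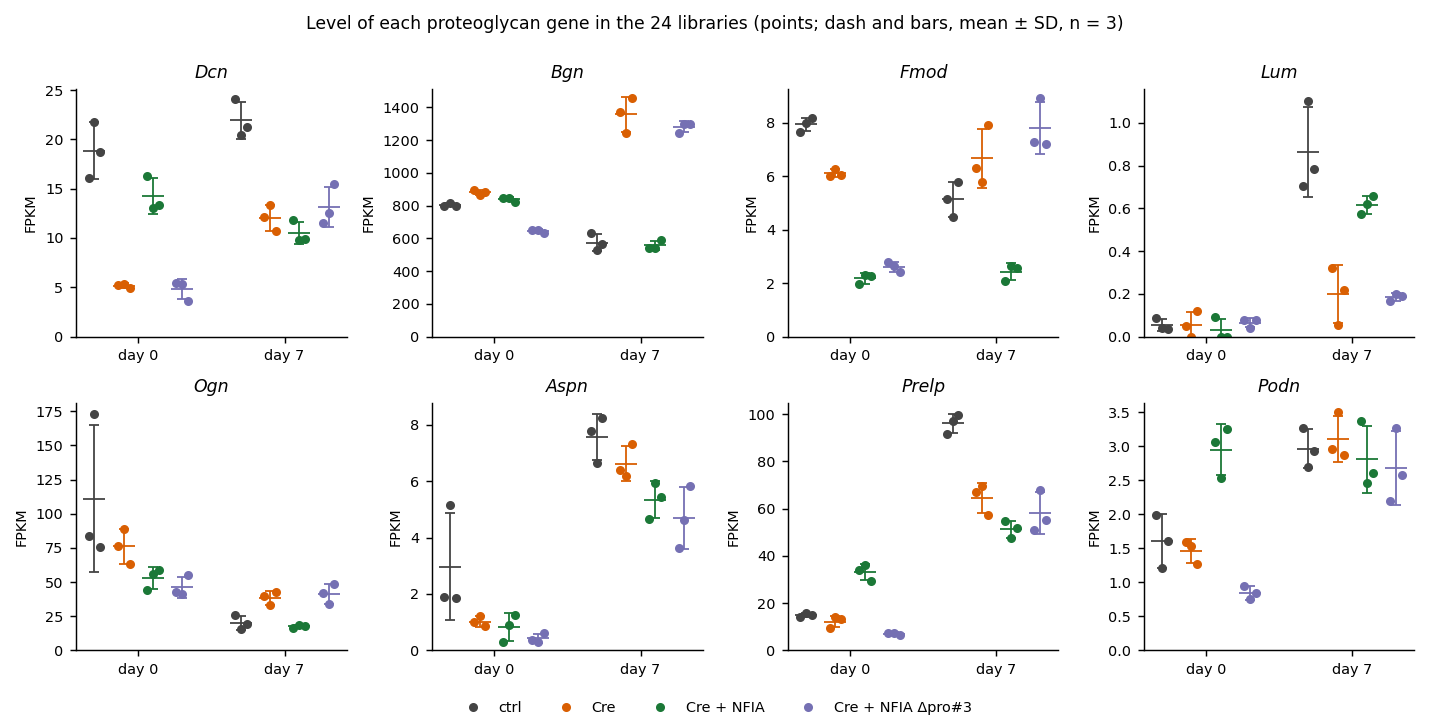
FPKM of each proteoglycan gene (vertical axis, linear and from 0, a scale of its own in each panel) in the 4 cell types at day 0 and day 7; points are the 3 libraries of a group and the dash and bars give the mean ± SD. Bgn at day 7 is near 1358 and 1281 FPKM in Cre and Cre + NFIA Δpro#3 and near 574 and 557 FPKM in ctrl and Cre + NFIA, and a single ctrl library at day 0 is high for both Ogn and Aspn.

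Tests were made on log2(FPKM + 1) with limma, and a gene is said to have risen or fallen at a Benjamini-Hochberg adjusted p under 0.05 over the 12640 genes with at least 1 FPKM in at least 3 libraries. Differences below are on that log2 scale with their SE, which understates the change of genes of a few FPKM or less. A 3-fold minimum, where used, is a fold of FPKM + 1. Such genes can therefore differ 3-fold in FPKM and not pass it. Of the 8 genes 7 passed this filter and Lum did not. In bulk RNA, fewer cells of a type and less RNA per cell cannot be told apart, which bears on all results that follow.

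Biglycan, a class I proteoglycan with chondroitin or dermatan sulfate chains that also signals through Toll-like receptors, separated the cell types at day 7. At day 7 Bgn was 631, 526 and 567 FPKM in ctrl, 1372, 1245.5 and 1457 in Cre, 538, 543 and 589.6 in Cre + NFIA, and 1242, 1301 and 1300.5 in Cre + NFIA Δpro#3. The Cre and Cre + NFIA Δpro#3 libraries all lay above every ctrl and Cre + NFIA library. Bgn was higher in Cre than in ctrl by 1.24 ± 0.08 (limma adjusted p = 5.5e-07), fell by 1.28 ± 0.08 in Cre + NFIA relative to Cre (adjusted p = 1.1e-07), and was 1.20 ± 0.08 higher in Cre + NFIA Δpro#3 than in Cre + NFIA (adjusted p = 8.9e-08). No difference passed the threshold between Cre + NFIA Δpro#3 and Cre (-0.08 ± 0.08, adjusted p = 0.55) or between Cre + NFIA and ctrl (-0.04 ± 0.08, adjusted p = 0.77).

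Before induction the pattern of Bgn was another one. At day 0 Bgn was 799, 815 and 799 FPKM in ctrl, 896, 867 and 882 in Cre, 849.7, 848 and 825 in Cre + NFIA, and 652, 649 and 633 in Cre + NFIA Δpro#3. The Cre + NFIA Δpro#3 libraries were the lowest, below all others of that day. Bgn was lower there than in Cre by -0.45 ± 0.04 (limma adjusted p = 3.5e-05) and than in Cre + NFIA by -0.38 ± 0.04 (adjusted p = 7.7e-05). Cre against ctrl gave 0.13 ± 0.04 (adjusted p = 0.085), which did not pass although the groups did not overlap.

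Decorin, the class I proteoglycan with a single glycosaminoglycan chain that binds collagen and TGF-β, separated ctrl and Cre + NFIA from the other cell types at day 0. Dcn was 16.1, 21.8 and 18.7 FPKM in ctrl, 5.24, 5.35 and 4.88 in Cre, 16.3, 13.0 and 13.3 in Cre + NFIA, and 5.41, 5.34 and 3.65 in Cre + NFIA Δpro#3. All Cre and Cre + NFIA Δpro#3 libraries lay below all ctrl and Cre + NFIA libraries. Dcn fell by 1.68 ± 0.14 in Cre relative to ctrl (limma adjusted p = 0.00022), rose in Cre + NFIA relative to Cre by 1.30 ± 0.14 (adjusted p = 6.9e-05), and was lower in Cre + NFIA Δpro#3 than in Cre + NFIA by -1.40 ± 0.14 (adjusted p = 9.7e-05). The comparison of Cre + NFIA Δpro#3 with Cre gave -0.10 ± 0.14 (adjusted p = 0.68). Cre + NFIA against ctrl gave -0.38 ± 0.14 (adjusted p = 0.062), and this difference passed the threshold under 7 of 23 alternatives.

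At day 7 Dcn was 24.1, 20.4 and 21.3 FPKM in ctrl, 12.1, 13.3 and 10.7 in Cre, 11.8, 9.84 and 9.85 in Cre + NFIA, and 11.5, 12.6 and 15.4 in Cre + NFIA Δpro#3. The ctrl libraries alone stood apart, above all 9 others. Against ctrl, Dcn gave -0.81 ± 0.11 in Cre (limma adjusted p = 7.0e-05) and -0.998 ± 0.11 in Cre + NFIA (adjusted p = 0.00013). Cre + NFIA against Cre gave -0.18 ± 0.11 (adjusted p = 0.17). Dcn was 0.30 ± 0.11 higher in Cre + NFIA Δpro#3 than in Cre + NFIA (adjusted p = 0.033), but the groups overlapped and the call was lost without Cre + NFIA Δpro#3 replicate 3 (0.19, adjusted p = 0.14), Cre + NFIA replicate 2 (0.26, adjusted p = 0.10) or Cre + NFIA replicate 3 (0.26, adjusted p = 0.10).

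Asporin, the third class I member, which binds collagen but lacks a glycosaminoglycan chain, was low at day 0. Aspn was then 1.89, 5.16 and 1.85 FPKM in ctrl, 1.00, 1.21 and 0.852 in Cre, 0.279, 0.901 and 1.27 in Cre + NFIA, and 0.375, 0.312 and 0.600 in Cre + NFIA Δpro#3. The lowest of these libraries held 7 reads. Aspn was lower in Cre + NFIA than in ctrl by -1.07 ± 0.28 (limma adjusted p = 0.015), a value that was -0.70 (adjusted p = 0.028) without ctrl replicate 2 and a call lost without Cre + NFIA replicate 1 (-0.83, adjusted p = 0.062). Cre against ctrl gave -0.88 ± 0.28 (adjusted p = 0.12) with ctrl replicate 2 and -0.51 (adjusted p = 0.26) without it. At day 7 it was 7.79, 6.65 and 8.23 FPKM in ctrl, 6.38, 6.18 and 7.32 in Cre, 4.65, 5.94 and 5.44 in Cre + NFIA, and 3.65, 4.64 and 5.83 in Cre + NFIA Δpro#3. These ranges lay close together. The comparisons of Cre + NFIA Δpro#3 with Cre (-0.43 ± 0.13, adjusted p = 0.044) and of Cre + NFIA with ctrl (-0.43 ± 0.13, adjusted p = 0.044) passed the threshold narrowly, and leaving out 1 library ended the first call in 9 of 12 cases (adjusted p up to 0.17) and the second in 8 of 12 (adjusted p up to 0.16).

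Fibromodulin, a class II proteoglycan with keratan sulfate chains that guides collagen cross-linking, was low wherever full-length NFIA was introduced. At day 0 Fmod was 7.67, 7.99 and 8.17 FPKM in ctrl, 6.02, 6.29 and 6.05 in Cre, 1.95, 2.31 and 2.27 in Cre + NFIA, and 2.77, 2.63 and 2.41 in Cre + NFIA Δpro#3. Both NFIA forms went with values below all ctrl and Cre libraries. Against Cre, Fmod gave -1.17 ± 0.07 in Cre + NFIA (limma adjusted p = 1.3e-06) and -0.98 ± 0.07 in Cre + NFIA Δpro#3 (adjusted p = 1.3e-05). The 2 NFIA forms differed by 0.18 ± 0.07 (adjusted p = 0.14). Fmod was lower in Cre than in ctrl by -0.33 ± 0.07 (adjusted p = 0.032), a call lost when any 1 of the 6 ctrl and Cre libraries or Cre + NFIA Δpro#3 replicate 2 was left out (adjusted p = 0.053 to 0.089).

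At day 7 Fmod was 5.14, 4.48 and 5.79 FPKM in ctrl, 6.30, 5.81 and 7.92 in Cre, 2.07, 2.65 and 2.56 in Cre + NFIA, and 7.30, 8.92 and 7.22 in Cre + NFIA Δpro#3. Here the shortened NFIA no longer went with low values, and the Cre + NFIA libraries alone were below 3 FPKM. Fmod was lower in Cre + NFIA than in Cre by -1.16 ± 0.12 (limma adjusted p = 5.9e-06) and than in ctrl by -0.84 ± 0.12 (adjusted p = 0.00076), and Cre + NFIA Δpro#3 exceeded Cre + NFIA by 1.36 ± 0.12 (adjusted p = 9.5e-07). For Fmod, Cre + NFIA Δpro#3 against Cre gave 0.20 ± 0.12 (adjusted p = 0.29). Cre exceeded ctrl by 0.32 ± 0.12 (adjusted p = 0.042), which was lost without ctrl replicates 1 or 2, Cre replicates 1 or 3, or Cre + NFIA replicate 3 (adjusted p = 0.053 to 0.18, with a difference of 0.21 without Cre replicate 3), and with size factors (0.20, adjusted p = 0.18) or quantile normalization (0.19, adjusted p = 0.20).

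Prolargin, a class II member of basement membranes and connective tissue that binds collagen and heparan sulfate, differed from Cre in opposite directions with the 2 NFIA forms at day 0. Prelp was 14.2, 15.7 and 15.04 FPKM in ctrl, 9.37, 14.0 and 13.1 in Cre, 34.2, 36.2 and 29.5 in Cre + NFIA, and 7.31, 7.46 and 6.44 in Cre + NFIA Δpro#3. The Cre + NFIA libraries were the highest and the Cre + NFIA Δpro#3 libraries the lowest of the day. Relative to Cre, Prelp rose by 1.40 ± 0.13 in Cre + NFIA (limma adjusted p = 2.1e-05) and fell by 0.69 ± 0.13 in Cre + NFIA Δpro#3 (adjusted p = 0.0041). The 2 NFIA forms differed by -2.09 ± 0.13 (adjusted p = 3.9e-06), more than 3-fold. Cre against ctrl gave -0.30 ± 0.13 (adjusted p = 0.22).

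At day 7 Prelp was 91.7, 97.1 and 99.5 FPKM in ctrl, 66.9, 69.6 and 57.4 in Cre, 54.8, 47.5 and 51.7 in Cre + NFIA, and 51.0, 68.0 and 55.1 in Cre + NFIA Δpro#3. The ctrl libraries stood above all others, as for Dcn. Against ctrl, Prelp gave -0.57 ± 0.10 in Cre (limma adjusted p = 0.00047) and -0.89 ± 0.10 in Cre + NFIA (adjusted p = 0.00014). Cre + NFIA was below Cre by -0.32 ± 0.10 (adjusted p = 0.015), a call lost without Cre replicates 1 or 2 or Cre + NFIA replicate 2 (adjusted p = 0.051 to 0.062) and with size factors (-0.22, adjusted p = 0.11).

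Lumican, the class II keratan sulfate proteoglycan that keeps the cornea clear, was not tested because of its low values. Lum had 0 to 2 reads in each of the 12 day 0 libraries. At day 7 it had 18, 24 and 23 reads in ctrl, 8, 1 and 5 in Cre, 16, 16 and 20 in Cre + NFIA, and 4, 5 and 5 in Cre + NFIA Δpro#3. Per length and depth this was 0.706, 1.10 and 0.785 FPKM in ctrl, 0.321, 0.0527 and 0.218 in Cre, 0.574, 0.619 and 0.659 in Cre + NFIA, and 0.165, 0.199 and 0.190 in Cre + NFIA Δpro#3. The ctrl and Cre + NFIA libraries lay above the other 6, with no test. A floor of 3 reads was 0.0989 to 0.187 FPKM over the libraries, and 13 of 24 libraries were at or under it, so expression at day 0 was not detectable at this depth. Floors cover counting error only.

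Osteoglycin, a class III keratan sulfate proteoglycan of bone and connective tissue, was the second most abundant of the genes at day 0. Ogn was 84.0, 173 and 76.0 FPKM in ctrl, 76.4, 89.1 and 63.3 in Cre, 44.0, 55.6 and 59.0 in Cre + NFIA, and 42.4, 41.2 and 55.1 in Cre + NFIA Δpro#3. The ctrl replicate 2 library was far above the rest, as it was for Aspn. With all libraries, Cre + NFIA Δpro#3 against Cre gave -0.71 ± 0.27 (limma adjusted p = 0.097) and Cre + NFIA against Cre gave -0.52 ± 0.27 (adjusted p = 0.18). Without that ctrl library, which enters the shared spread, the adjusted p was 0.010 and 0.029. Cre + NFIA was below ctrl by -0.97 ± 0.27 (adjusted p = 0.018), which was -0.60 (adjusted p = 0.026) without ctrl replicate 2 and lost its call without Cre + NFIA replicate 1 (-0.84, adjusted p = 0.071). Cre against ctrl gave -0.45 ± 0.27 (adjusted p = 0.38) with ctrl replicate 2 and -0.08 (adjusted p = 0.88) without it.

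At day 7 Ogn was 25.9, 15.6 and 19.2 FPKM in ctrl, 39.9, 32.9 and 42.8 in Cre, 16.1, 18.8 and 17.8 in Cre + NFIA, and 42.0, 33.7 and 48.5 in Cre + NFIA Δpro#3. As for Bgn, the Cre and Cre + NFIA Δpro#3 libraries all lay above the ctrl and Cre + NFIA libraries. Ogn exceeded ctrl in Cre by 0.92 ± 0.17 (limma adjusted p = 0.00059), was lower in Cre + NFIA than in Cre by -1.09 ± 0.17 (adjusted p = 0.00014), and was 1.18 ± 0.17 higher in Cre + NFIA Δpro#3 than in Cre + NFIA (adjusted p = 5.4e-05). For Ogn, Cre + NFIA Δpro#3 against Cre gave 0.09 ± 0.17 (adjusted p = 0.76).

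**Figure D2:**
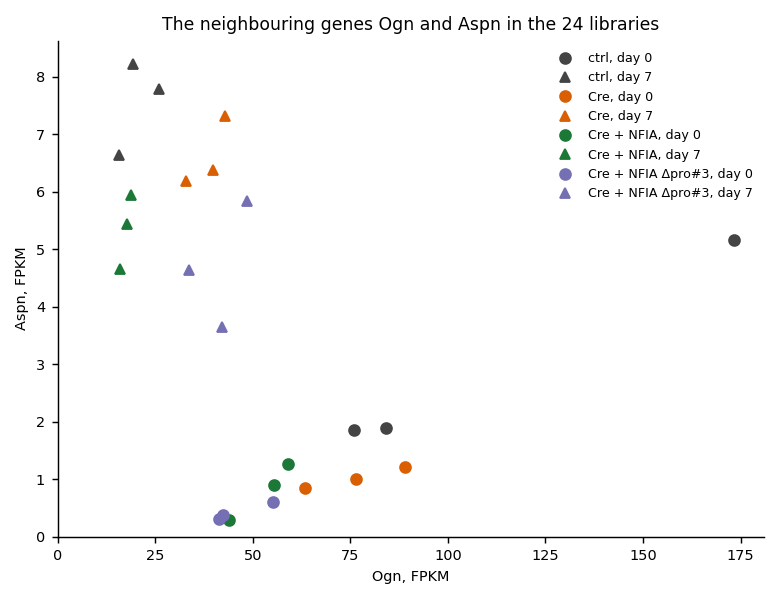
Ogn (horizontal axis, FPKM) against Aspn (vertical axis, FPKM) in the 24 libraries; circles are day 0, triangles day 7, and colours the 4 cell types. The ctrl day 0 replicate 2 library lies alone at 173 FPKM of Ogn and 5.16 FPKM of Aspn, and the day 7 libraries have higher Aspn and lower Ogn than most day 0 libraries.

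Podocan (class V), which binds collagen, separated the 2 NFIA forms from ctrl and Cre at day 0 and not at day 7. At day 0 Podn was 1.995, 1.20 and 1.61 FPKM in ctrl, 1.59, 1.53 and 1.26 in Cre, 3.06, 2.54 and 3.26 in Cre + NFIA, and 0.949, 0.751 and 0.836 in Cre + NFIA Δpro#3. As for Prelp, the Cre + NFIA libraries were the highest and the Cre + NFIA Δpro#3 libraries the lowest. The ctrl and Cre libraries overlapped, and Cre against ctrl gave -0.07 ± 0.12 (limma adjusted p = 0.76). Podn rose in Cre + NFIA relative to Cre by 0.68 ± 0.12 (limma adjusted p = 0.0015), and Cre + NFIA Δpro#3 was below Cre + NFIA by -1.10 ± 0.12 (adjusted p = 0.00014). It was also below Cre by -0.41 ± 0.12 (adjusted p = 0.032), which was lost without Cre replicates 1 or 2 or any 1 Cre + NFIA Δpro#3 replicate (adjusted p = 0.059 to 0.11). At day 7 all 12 libraries lay between 2.20 and 3.498 FPKM and no comparison passed the threshold (adjusted p = 0.41 to 0.79).

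**Figure D3:**
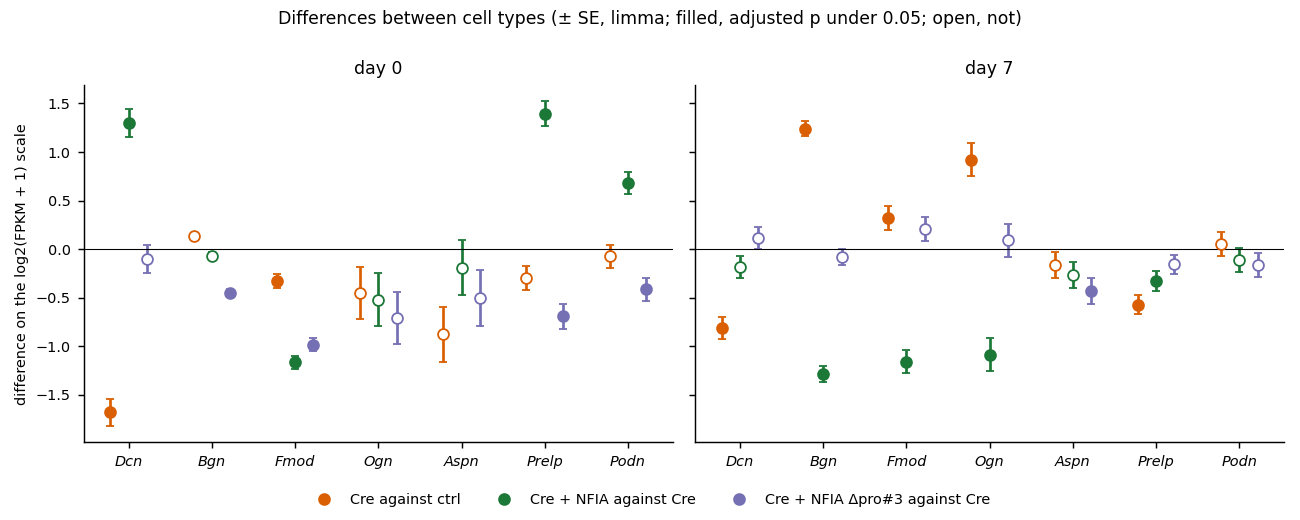
Differences between cell types on the log2(FPKM + 1) scale (vertical axis, ± SE) at day 0 and day 7 for the 7 genes tested; orange is Cre against ctrl, green Cre + NFIA against Cre, purple Cre + NFIA Δpro#3 against Cre, and filled points have a limma adjusted p under 0.05. At day 7 the green points of Bgn, Fmod and Ogn lie between -1.28 and -1.09 while the purple points of the same genes lie between -0.08 and 0.20.

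Set side by side at day 0, 2 of the 7 genes tested were lower in Cre than in ctrl (Dcn and Fmod) and none was higher, where 3.33% of all genes tested were called, 1.63% higher and 1.70% lower. Against Cre, 3 were higher in Cre + NFIA (Dcn, Prelp, Podn) and 1 was lower (Fmod), where 27.6% of all genes were called, 14.7% higher and 12.9% lower. As for the shortened form, 4 were lower in Cre + NFIA Δpro#3 than in Cre (Bgn, Fmod, Prelp, Podn) and none higher, where the share of all genes called was 18.3%, 9.26% higher and 9.02% lower. Between the NFIA forms, 4 were lower in Cre + NFIA Δpro#3 (Dcn, Bgn, Prelp, Podn) and none higher, where 10.1% were called, 4.50% higher and 5.59% lower. Against ctrl, 2 were higher in Cre + NFIA (Prelp, Podn) and 3 lower (Fmod, Ogn, Aspn), where 33.1% were called, 18.8% higher and 14.3% lower. With a minimum of 3-fold in FPKM + 1 beside the threshold, Dcn alone passed in Cre against ctrl and Prelp alone between the NFIA forms. Of all genes, 0.0237% and 0.190% did. No member passed in the other 3 comparisons, where 0.538%, 0.142% and 0.435% of all genes did. Fmod in Cre + NFIA against ctrl was 2.82-fold lower on that scale, with mean FPKM of 2.18 and 7.94. The median difference of the 7 genes was -0.33, -0.07, -0.50, -0.38 and -0.38 in these comparisons, and that of all genes was between -0.002 and 0.02. These comparisons share libraries and are not independent of each other.

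At day 7 most genes differed in 3 of the 5 comparisons, so the counts of members stand against a high background. Against ctrl, 3 were higher in Cre (Bgn, Fmod, Ogn) and 2 lower (Dcn, Prelp), where 58.8% of all genes were called, 36.1% higher and 22.7% lower. With full-length NFIA introduced, in Cre + NFIA, 4 were lower than in Cre (Bgn, Fmod, Ogn, Prelp) and none higher, where 63.0% were called, 27.0% higher and 35.9% lower. Between the NFIA forms, 4 were higher in Cre + NFIA Δpro#3 (Dcn, Bgn, Fmod, Ogn) and none lower, where 69.2% were called, 40.4% higher and 28.9% lower. Aspn alone differed between Cre + NFIA Δpro#3 and Cre, where 17.7% were called, 7.70% higher and 10.0% lower. Against ctrl, 4 were lower in Cre + NFIA (Dcn, Fmod, Aspn, Prelp) and none higher, where 18.0% were called, 8.81% higher and 9.15% lower. No member passed the 3-fold minimum in these comparisons, where 1.51%, 3.63%, 6.92%, 0.625% and 0.301% of all genes did. The median difference of the 7 genes was 0.05, -0.32, 0.30, -0.08 and -0.43 in these comparisons, and that of all genes 0.09, -0.06, 0.10, 0.02 and 0.02.

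Other cell type markers moved with the day 7 values. The 8 adipocyte markers summed to 21768 to 25361 FPKM in ctrl, 4323 to 9321 in Cre, 20377 to 20587 in Cre + NFIA and 817 to 2080 in Cre + NFIA Δpro#3. The 8 fibroblast or precursor markers summed to 678 to 722, 1104 to 1211, 665 to 753 and 1193 to 1437 FPKM, and the 6 pericyte or smooth muscle markers to 170 to 208, 245 to 314, 102 to 120 and 323 to 374 FPKM in the same order. By group mean, neither of the last 2 lists moved as one. In Cre against ctrl, 6 precursor markers were higher and 1 was lower of 7 tested, and 2 pericyte or smooth muscle markers were higher and 2 lower of 5 tested. Of all genes tested, 36.1% were higher and 22.7% lower in that comparison. Ly6a was the largest part of the precursor sum (386, 900, 438 and 1136 FPKM in the same order of cell types). Col15a1 went the other way (210, 64.3, 168 and 19.8 FPKM). The pericyte or smooth muscle sum rests on Acta2 and Pdgfrb, whereas Cspg4 (0.924, 0.221, 1.51 and 0.174 FPKM) and Myh11 (2.78, 0.683, 1.62 and 0.613 FPKM) were lower in Cre and Cre + NFIA Δpro#3 than in ctrl and Cre + NFIA by group mean. Cspg4 and Myh11 had at least 1 FPKM in only 5 and 6 libraries. The filter may have let these genes in through the groups where they were high, so they add no weight to the count of lower markers. FPKM is a share of the library, so genes that take a large share lower the values of the rest. The part of these in the day 7 differences of Bgn, Fmod and Ogn was not tested. At day 0 the adipocyte markers summed to 64.3 to 105 FPKM in all 12 libraries.

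Over differentiation the genes went different ways. Each cell type's day 7 and day 0 libraries were compared in a fit over all 24 libraries. Prelp rose in every cell type, by 2.60 ± 0.12 in ctrl, 2.33 ± 0.12 in Cre, 0.61 ± 0.12 in Cre + NFIA and 2.86 ± 0.12 in Cre + NFIA Δpro#3 (limma adjusted p at most 0.00011). Aspn rose in every cell type too, by 1.20 ± 0.23, 1.92 ± 0.23, 1.84 ± 0.23 and 1.99 ± 0.23 (limma adjusted p at most 9.0e-05). Podn rose in ctrl (0.61 ± 0.12), Cre (0.74 ± 0.12) and Cre + NFIA Δpro#3 (0.99 ± 0.12), and gave -0.06 ± 0.12 in Cre + NFIA (limma adjusted p = 0.71). Those Cre + NFIA cells had the highest Prelp and Podn already at day 0.

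The remaining genes changed with the cell type. Ogn fell in ctrl (-2.33 ± 0.23), Cre (-0.96 ± 0.23) and Cre + NFIA (-1.53 ± 0.23, limma adjusted p at most 0.0018), and gave -0.16 ± 0.23 in Cre + NFIA Δpro#3 (adjusted p = 0.62). Bgn fell in ctrl (-0.49 ± 0.06) and Cre + NFIA (-0.59 ± 0.06), and rose by 0.62 ± 0.06 in Cre and 0.99 ± 0.06 in Cre + NFIA Δpro#3 (limma adjusted p at most 3.0e-07). The cell types in which Bgn rose were those with the lower Adipoq at day 7. Dcn rose by 1.08 ± 0.13 in Cre and 1.30 ± 0.13 in Cre + NFIA Δpro#3, fell by 0.40 ± 0.13 in Cre + NFIA (limma adjusted p = 0.0099, lost without Cre + NFIA day 0 replicate 1, 0.065), and gave 0.21 ± 0.13 in ctrl (adjusted p = 0.15). Fmod fell by 0.55 ± 0.10 in ctrl and rose by 1.29 ± 0.10 in Cre + NFIA Δpro#3 (limma adjusted p at most 6.0e-05), and gave 0.10 ± 0.10 in Cre and 0.11 ± 0.10 in Cre + NFIA.

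**Figure D4:**
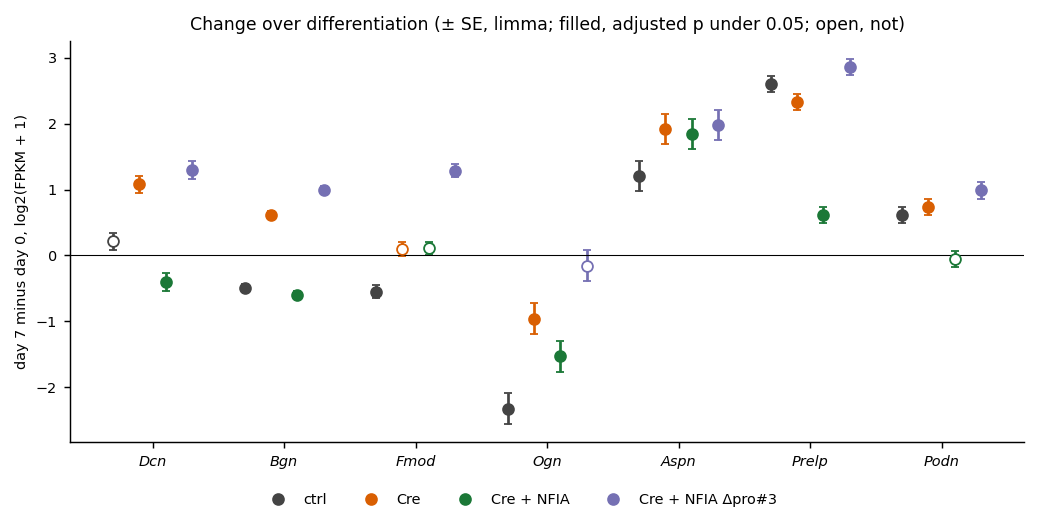
Change from day 0 to day 7 on the log2(FPKM + 1) scale (vertical axis, ± SE) for the 7 genes tested in the 4 cell types, given by colour; filled points have a limma adjusted p under 0.05. Prelp and Aspn lie above 0 in all 4 cell types, and Bgn lies above 0 in Cre (0.62) and Cre + NFIA Δpro#3 (0.99) and below 0 in ctrl (-0.49) and Cre + NFIA (-0.59).

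By count, 3 of the 7 genes rose and 3 fell in ctrl, where 71.0% of all genes tested were called, 32.9% higher and 38.1% lower at day 7. In Cre 5 rose and 1 fell, where 51.7% were called, 30.0% higher and 21.6% lower. Of the 7, in Cre + NFIA 2 rose and 3 fell, where 70.1% were called, 31.8% higher and 38.3% lower. Most rose in Cre + NFIA Δpro#3, where 6 did and none fell, while 41.5% were called, 24.5% higher and 17.0% lower. The 3-fold minimum was passed by 2 members in ctrl (Prelp, Ogn), 2 in Cre and 2 in Cre + NFIA Δpro#3 (Prelp, Aspn in both) and 1 in Cre + NFIA (Aspn), where 8.50%, 2.73%, 1.46% and 9.08% of all genes did. The median change of the 7 genes was 0.21, 0.74, -0.06 and 1.29, and that of all genes lay between -0.05 and 0.05.

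The difference between days of a cell type difference was tested itself. For Cre against ctrl it passed the threshold for Dcn (0.87 ± 0.19), Bgn (1.11 ± 0.08), Fmod (0.65 ± 0.14) and Ogn (1.37 ± 0.33), all more positive at day 7 (limma adjusted p at most 0.0019), where 49.2% of all genes were called, 29.7% more positive and 19.5% more negative. For Cre + NFIA against Cre it passed for Dcn (-1.48 ± 0.19), Bgn (-1.21 ± 0.08), Prelp (-1.72 ± 0.17) and Podn (-0.79 ± 0.18), all more negative at day 7 (limma adjusted p at most 0.00082), where 48.9% were called, 18.8% more positive and 30.1% more negative. For Cre + NFIA Δpro#3 against Cre it passed for Bgn (0.37 ± 0.08), Fmod (1.19 ± 0.14) and Prelp (0.53 ± 0.17, limma adjusted p = 0.032), where 18.2% were called, 7.79% more positive and 10.4% more negative. The Prelp value was lost without Cre day 0 replicates 2 or 3, Cre day 7 replicate 3, or Cre + NFIA Δpro#3 day 0 replicate 3 or day 7 replicate 2 (adjusted p = 0.074 to 0.092). The Ogn interaction of Cre + NFIA Δpro#3 against Cre was 0.80 ± 0.33 (adjusted p = 0.10) and passed the threshold without ctrl day 0 replicate 2 (adjusted p = 0.024). That library also moved the Aspn interaction of Cre against ctrl from 0.71 ± 0.33 (adjusted p = 0.077) to 0.34 (adjusted p = 0.27) when left out. The same Aspn interaction passed the threshold without ctrl day 0 replicate 1 (0.89, limma adjusted p = 0.034) or replicate 3 (0.90, adjusted p = 0.030). It also passed with voom (1.16, adjusted p = 0.046). Prelp in Cre + NFIA against Cre alone passed the 3-fold minimum, where 1.53%, 2.86% and 0.767% of all genes did in the 3 interactions.

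Of 10 other genes of the family 5 passed the filter. The other 5, among them Kera (keratocan) and Epyc (epiphycan), reached no more than 16 reads per library, and Chad (chondroadherin) stood at 0 reads throughout. At day 7 all 5 tested genes were lower in Cre + NFIA than in Cre (median -0.56, all genes -0.06), where 35.9% of all genes were lower, and 3 were higher in Cre than in ctrl with none lower, where 36.1% were higher. Among the 5, Chadl had at least 1 FPKM in only 3 libraries, and its group mean was above 1 FPKM in Cre at day 7 alone (1.09 FPKM). The filter may have let Chadl in through that group, so it adds no weight to either count. Omd, which lies between Aspn and Ogn, had day 0 means of 3.43 (ctrl), 2.44 (Cre), 1.25 (Cre + NFIA) and 0.978 FPKM (Cre + NFIA Δpro#3), and day 7 means of 0.931, 1.77, 0.664 and 1.60 FPKM in that order. Tsku (tsukushi), a secreted member that binds growth factors, had day 0 means of 14.7, 17.5, 12.7 and 12.1 FPKM and day 7 means of 6.997, 11.6, 4.27 and 10.1 FPKM in the same order.

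The collagens that the proteins bind differed between the cell types at both days. All 11 collagen genes listed were lower in Cre + NFIA than in Cre at day 7 (median -0.96, all genes -0.06), where 35.9% of all genes were lower. At day 0 the same comparison gave 8 lower and 1 higher (median -0.63), where 12.9% were lower and 14.7% higher. Cre against ctrl at day 7 gave 6 higher and 1 lower (median 0.52), where 36.1% were higher. Over time in ctrl 3 collagens rose and 8 fell (median -0.45, all genes -0.05), where 32.9% of all genes rose and 38.1% fell. Col12a1, a collagen on the surface of fibrils, was 20.9 ± 3.26 FPKM in ctrl, 66.8 ± 9.28 in Cre and 18.5 ± 1.24 in Cre + NFIA at day 7, and fell by 1.79 ± 0.11 in Cre + NFIA relative to Cre (limma adjusted p = 1.0e-07). Col6a3, of the beaded filaments, was among the 3 that rose in ctrl, from 45.8 ± 3.22 FPKM at day 0 to 204 ± 11.4 at day 7 (2.13 ± 0.07, limma adjusted p = 3.2e-16).

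Of 16 genes for processing collagen and proteoglycans 13 were tested. At day 7 all 13 were higher in Cre than in ctrl (median 0.94), where 36.1% of all genes were higher, and 12 were lower and 1 higher in Cre + NFIA than in Cre (median -1.20), where 35.9% were lower. All 13 were also higher in Cre + NFIA Δpro#3 than in Cre + NFIA at day 7 (median 1.51), where 40.4% were higher. Cre + NFIA Δpro#3 against Cre gave 6 higher and 2 lower at day 0 (median 0.00054), while for the collagens it gave 1 higher and 6 lower (median -0.29). Of all genes, 9.26% were higher and 9.02% lower there. At day 7 this comparison gave 7 higher and 0 lower for the processing genes and 2 higher and 3 lower for the collagens. The shares of all genes were then 7.70% higher and 10.0% lower. Over time in ctrl 1 processing gene rose and 11 fell (median -1.32), where 32.9% of all genes rose and 38.1% fell. Lox (lysyl oxidase), which cross-links collagen, was 221 ± 20.3 FPKM in Cre and 62.1 ± 4.03 in Cre + NFIA at day 7 (-1.82 ± 0.12, limma adjusted p = 1.1e-07). Mmp14, a membrane-bound collagenase, was 247 ± 17.1 and 74.7 ± 2.72 FPKM (-1.71 ± 0.07, adjusted p = 7.7e-09). Adamts5, an enzyme that cuts proteoglycans, fell in ctrl from 50.2 ± 6.28 FPKM at day 0 to 11.4 ± 2.44 at day 7 (-2.05 ± 0.10, limma adjusted p = 1.2e-13).

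The enzymes that build the chains were called in both directions. Of 19 tested genes for the linker and for chondroitin or dermatan sulfate, 11 were higher and 2 lower in Cre than in ctrl at day 7 (median 0.27), where 58.8% of all genes were called in either direction. In Cre + NFIA against Cre 3 were higher and 9 lower (median -0.19), where 63.0% were called. Chst13, among the 19, had at least 1 FPKM in only 7 libraries. Its group mean was above 1 FPKM only in Cre (1.70) and Cre + NFIA Δpro#3 (2.14) at day 7. The filter may have let Chst13 in through those groups, so it adds no weight to either count. Over time in ctrl 5 rose and 12 fell (median -0.47), where 71.0% were called. Csgalnact1, which starts chondroitin chains, was 17.9 ± 2.66 FPKM in Cre and 5.09 ± 0.376 in Cre + NFIA (-1.63 ± 0.12, limma adjusted p = 3.4e-07). Chst11, a chondroitin sulfotransferase, was among the 5 that rose in ctrl, from 4.49 ± 0.327 FPKM at day 0 to 30.3 ± 1.59 at day 7 (2.51 ± 0.10, adjusted p = 4.8e-15). Of the 5 tested keratan sulfate enzymes 3 were higher and 1 lower in Cre than in ctrl at day 7, where 36.1% of all genes were higher and 22.7% lower. Over time in ctrl 1 of these enzymes rose and 3 fell (median -0.27), where 32.9% of all genes rose and 38.1% fell. The 1 that rose was Chst1, a keratan sulfotransferase, from 3.90 ± 0.650 to 14.1 ± 0.462 FPKM (1.63 ± 0.10, limma adjusted p = 2.9e-12).

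Among 12 tested growth factors and receptors reported to bind decorin or biglycan, 11 were higher and 1 lower in Cre than in ctrl at day 7 (median 0.70, all genes 0.09), where 36.1% of all genes were higher. In Cre + NFIA against Cre 2 were higher and 10 lower (median -0.89), where 35.9% were lower. Over time in ctrl 1 rose and 10 fell (median -0.69), where 38.1% fell. Tlr2, a receptor that biglycan activates, fell in ctrl from 26.5 ± 1.36 FPKM at day 0 to 2.34 ± 0.207 at day 7 (-3.04 ± 0.09, limma adjusted p = 1.4e-16).

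The genes whose log2(FPKM + 1) most resembled each proteoglycan gene over the 24 libraries are given by Pearson's r as a description, since libraries of a group share their treatment. They were Lbh (0.97) for Bgn, Atp8b1 (0.80) and Eln (elastin, 0.79) for Dcn, Cped1 (0.96) for Aspn, Pqlc1 (0.93) for Fmod, Ccnd2 (cyclin D2, 0.97) for Prelp and Marf1 (0.97) for Ogn. Podn was most like Nid2 (nidogen 2, a basement membrane protein, 0.90) and Prelp (0.90). Apart from Prelp for Podn, no member was among the closest 3 genes of another member, so neighbours such as Ogn and Aspn or Prelp and Fmod were not among each other's closest genes.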

How the data were processed

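The authors aligned reads of stranded poly(A) libraries to mm9 with STAR 2.5.3a (version per the submitters' processing notes), kept uniquely aligned reads, counted them per gene on the matching strand, and deposited FPKM values with gene lengths for 24825 genes in each of 24 libraries. In every library the products of FPKM and gene length (kilobases) added up to 1000000. All values (100%, tolerance 0.05) corresponded to whole reads, which gave back the reads per gene and totals of 7.73 to 14.6 M.

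Groups were taken from the sample titles. Values were transformed to log2(FPKM + 1), genes with at least 1 FPKM in at least 3 libraries were kept (12640), and limma 3.58.1 (R 4.3.3) was fitted with a mean-variance trend, with two-sided tests and Benjamini-Hochberg adjustment over all genes kept. Comparisons within a day used that day's 12 libraries, and those between days and interactions all 24, which made 17 comparisons. The fit was tested on simulated data. Tables were read with Python 3.11.15 and pandas 2.3.3. Replicates of 1 group differed by 2.17 to 15.1 times sampling noise (chi-square per degree of freedom), so none was counted as a repeat.

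Values of all 8 genes are given, but Lum entered no comparison and not every comparison of the 7 genes tested is printed. Of the other lists, genes named are those with the largest change past the threshold and at least 3-fold in Cre against ctrl, Cre + NFIA against Cre, Cre + NFIA Δpro#3 against Cre or over time in ctrl (up to 2 in each direction per list) and, for likeness, those with the highest r. Omd and Tsku were chosen after their values were seen, as were Kera, Epyc and Chad. The members and lists were chosen with earlier results of these data known. Alternatives were pseudocounts of 0.1 and 5, no filter, size factors, quantile normalization, other sets of libraries in the fit, a replicate block, no trend, voom on recovered reads, a 3-fold minimum, and leaving out each library.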

Additional observations from a re-analysis of the deposited data

Results flagged for a closer look

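In 11 cases the difference between 2 cell types was not the same at day 0 and day 7 by a test of the interaction itself (limma, all 24 libraries, adjusted over 12640 genes). For Cre against ctrl the change of the difference was 0.87 for Dcn (adjusted p = 0.00066), 1.11 for Bgn (9.7e-09), 0.65 for Fmod (0.00086) and 1.37 for Ogn (0.0019). For Cre + NFIA against Cre it was -1.48 for Dcn (1.4e-06), -1.21 for Bgn (7.3e-10), -1.72 for Prelp (5.4e-08) and -0.79 for Podn (0.00082). For Cre + NFIA Δpro#3 against Cre it was 0.37 for Bgn (0.0045), 1.19 for Fmod (2.1e-05) and 0.53 for Prelp (0.032). Adipocyte and precursor markers also differed between these groups at day 7, and their part in these values was not tested.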

How the results depend on the processing

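A minimum of 3-fold in FPKM + 1 left 1 gene called (Dcn) in Cre against ctrl and 1 (Prelp) in Cre + NFIA Δpro#3 against Cre + NFIA at day 0. It left 0 in the other 3 comparisons of day 0 and in all 5 of day 7. Between days it left 1 in Cre + NFIA and 2 in each other cell type, and for the interactions 0, 1 (Prelp) and 0. Apart from this minimum, the following counts moved by over 1.5 times. Cre against ctrl at day 0 went from 2 to 1 with a pseudocount of 0.1 or only the groups compared, and lay between 1 and 2 without 1 library. Cre + NFIA against ctrl at day 0 went from 5 to 3 with only the groups compared. Cre + NFIA Δpro#3 against Cre at day 7 went from 1 to 0 with no filter, only the groups compared, all 24 libraries or no trend, and lay between 0 and 1 without 1 library. The causes were not tested.

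Beside leaving out a library, other settings ended calls of single genes, among them the following. No filter did so for Podn in Cre + NFIA Δpro#3 against Cre at day 0 (adjusted p = 0.057), Fmod in Cre against ctrl (0.078), Aspn in Cre + NFIA Δpro#3 against Cre (0.091), Aspn in Cre + NFIA against ctrl (0.089) and Dcn between the NFIA forms (0.064) at day 7, and the Prelp interaction of Cre + NFIA Δpro#3 (0.055). Fitting only the groups compared did so for Fmod in Cre against ctrl at day 0 (0.16) and day 7 (0.072), Ogn (0.070) and Aspn (0.076) in Cre + NFIA against ctrl at day 0, Dcn between the NFIA forms (0.056) and Aspn in Cre + NFIA Δpro#3 against Cre (0.11) at day 7, and that Prelp interaction (0.097). Quantile normalization ended the call of Podn in Cre + NFIA Δpro#3 against Cre at day 0 (0.062) and, with size factors as well, of Dcn between the NFIA forms at day 7 (0.10 and 0.16).

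Replicate numbers did not pair the libraries: no comparison had all pair correlations above 0.1 (-0.27 to 0.20 over all pairs). With a replicate block, Cre against ctrl at day 0 had 1 gene called in place of 2 (Fmod, adjusted p = 0.056), and no other call changed.

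Size factors moved the median of all genes by -0.11 in Cre against ctrl at day 7, -0.10 in Cre + NFIA Δpro#3 against Cre + NFIA at day 7, and -0.11 and 0.11 in the Cre and Cre + NFIA interactions, and quantile normalization by -0.10 between days in Cre. Sign changes were seen only for differences that had not passed the threshold. With quantile normalization these were Bgn in Cre + NFIA against ctrl at day 0 (-0.073) and day 7 (0.0022), Podn in Cre against ctrl at day 7 (-0.078) and its interaction (-0.038), Fmod between days in Cre (-0.030) and Aspn in the Cre + NFIA interaction (0.041). With size factors they were Podn in Cre against ctrl at day 7 (-0.051) and between days in Cre + NFIA (0.0026) and Aspn in the Cre + NFIA interaction (0.025). The last was 0.16 with a pseudocount of 0.1 and 0.24 with voom. With a pseudocount of 5 the Fmod interaction of Cre + NFIA was -0.017 and the Aspn interaction of Cre + NFIA Δpro#3 was -0.12.

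Without 1 library, the differences that changed sign ranged as follows. At day 0, Podn in Cre against ctrl ranged from -0.19 to 0.035, Aspn in Cre + NFIA against Cre from -0.37 to 0.043, and Dcn in Cre + NFIA Δpro#3 against Cre from -0.18 to 0.052. At day 7, Podn in Cre against ctrl ranged from -0.014 to 0.11, Ogn in Cre + NFIA Δpro#3 against Cre from -0.026 to 0.23, Podn in Cre + NFIA Δpro#3 against Cre + NFIA from -0.16 to 0.050, and Bgn, Ogn and Podn in Cre + NFIA against ctrl from -0.10 to 0.027, -0.33 to 0.015 and -0.16 to 0.0057. Between days, Fmod in Cre ranged from -0.014 to 0.18 and Podn in Cre + NFIA from -0.16 to 0.011. The Fmod and Aspn interactions of Cre + NFIA ranged from -0.073 to 0.12 and from -0.31 to 0.10, and the Aspn interaction of Cre + NFIA Δpro#3 from -0.070 to 0.21. In all, 1935 values without 1 library kept their direction and side of the threshold, 48 lost the threshold, 10 gained it and 23 changed sign.

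Depth limited Lum, Aspn and Podn most, with as few as 0, 7 and 32 reads in a library.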
